A study of Brassica carinata with 12 samples.

Results

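The 89 genes described here were abundant in every anther library of a study of synthetic Brassica carinata. They were chosen from the count table by level alone. A gene was kept if its identifier places it on a B or C chromosome other than C03 and it had 200 CPM or more (its count scaled to the library's total count) in each of the 12 libraries. Of the 97149 genes in the table, 84112 are placed outside C03, so the 89 genes are 0.106% of these. The same level was also reached in every library by 1 C03 gene and 8 unplaced genes, which were not included. Because the rule used the levels themselves, levels, shares of counts and ranks are given as a description, with no test.

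RNA-seq was done on anthers of a haploid form (genotype BC), obtained by crossing B. oleracea var. alboglabra (female parent) to B. nigra (male parent), and of a tetraploid form (genotype BBCC), for which ovule culture and colchicine treatment are also named. Each form was sampled at meiosis (sporogenesis, labelled young anther) and at mitosis (gametogenesis, labelled anther), with 3 libraries in each of the 4 groups. The tissue label is anther, whereas the extraction protocol speaks of floral buds, and whether libraries of the same group stem from different plants is not stated. The p-values below therefore cover the variation among the sequenced libraries, possibly no more than technical variation. Total counts ranged from 15769687 to 16793767 per library, and the lowest count of any of the 89 genes in any library was 3291. No batch or date is given.

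Brassica carinata combines the B genome of B. nigra with the C genome of B. oleracea, so many of its genes exist as a B copy and a C copy. An anther holds the male germ cells, the tapetum that feeds them, and the green outer wall, and its RNA is a mixture from all of these. At meiosis the pollen mother cells divide to form microspores, and at the later mitoses the microspores become pollen. The files do not pair gene identifiers with names and no annotation was used here, so no function is given for any gene, the tissue label could not be checked against marker genes, and genes are named only by identifier. In RNA from whole anthers, fewer cells of a type and less RNA per cell cannot be told apart.

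The 89 genes took a larger share of counts at meiosis than at mitosis in both forms. In the haploid they held 8.004%, 8.17% and 8.17% of counts in the 3 meiosis libraries and 5.81%, 5.84% and 5.71% in the 3 mitosis libraries. In the tetraploid they held 7.68%, 7.65% and 7.59% at meiosis and 4.65%, 4.57% and 4.57% at mitosis. The haploid libraries were thus above the tetraploid libraries at both stages, and no library of one group overlapped with another group.

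A single gene on chromosome B01, BcaB01g02286, accounted for much of these differences. It took 2.82% ± 0.0634 (SD, n = 3) of all counts in the haploid at meiosis, 1.75% ± 0.0380 in the tetraploid at meiosis, 1.35% ± 0.0319 in the haploid at mitosis and 0.431% ± 0.00610 in the tetraploid at mitosis. Without it, the other 88 genes held 5.29% ± 0.0342 of haploid counts and 5.89% ± 0.0146 of tetraploid counts at meiosis, so the order of the forms in counts turned at that stage. At mitosis they held 4.44% ± 0.0365 and 4.16% ± 0.0471, and the haploid remained above the tetraploid. The turn at meiosis was seen in counts and not in the deposited FPKM (fragments scaled to gene length and sequencing depth). There the 88 genes took 5.42% ± 0.0355 of the haploid FPKM sum at meiosis. The tetraploid share was 5.11% ± 0.0209, so on that scale the haploid stayed above.

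**Figure D1:**
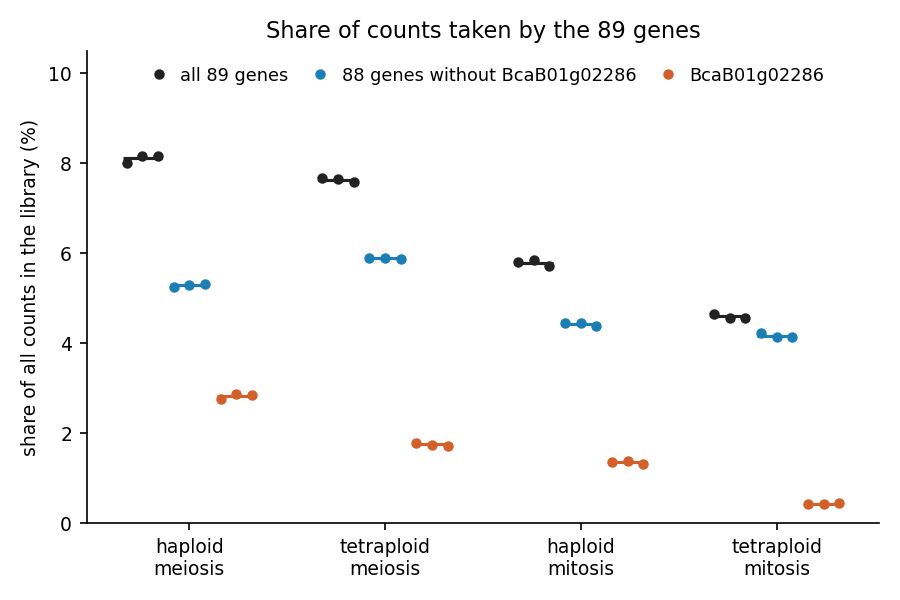
Share of all counts in the library (%) taken by the 89 genes, by BcaB01g02286 alone and by the other 88 genes, for the 4 groups; each point is 1 library and each line a group mean. The share of the 89 genes fell from 8.11% in the haploid at meiosis to 4.59% in the tetraploid at mitosis, and the 88 genes without BcaB01g02286 were highest in the tetraploid at meiosis, at 5.89%.

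The genes that stayed abundant everywhere were a minor part of the most abundant genes of any given library. A library had between 405 and 528 genes at 200 CPM or more, of which the 89 genes made up 16.9% to 21.98%. Of the 100 most abundant genes of a library, 32 to 33 were among the 89 in the haploid at meiosis and 42 to 43 in the tetraploid at meiosis. At mitosis the numbers were lower, at 12 to 13 in the haploid and 14 to 16 in the tetraploid. All 89 ranked within the first 500 in every library, with 495 as the lowest rank of any of them, but just 7 stayed within the first 100 throughout, and 3 within the first 50. These 3 were BcaB01g02286, BcaB05g24199 and BcaB02g07012.

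BcaB01g02286 was the most abundant gene of all 6 meiosis libraries, the second of the 3 haploid mitosis libraries and the sixth of the 3 tetraploid mitosis libraries. At meiosis its CPM was 27504, 28676 and 28511 in haploid libraries against 17895, 17481 and 17136 in tetraploid libraries. At mitosis it was 13493, 13832 and 13195 against 4320, 4251 and 4372. The 4 groups did not overlap, and the level followed the same order as its share of counts.

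Levels of different genes can be compared only per length, for which the deposited FPKM values (fragments scaled to gene length and sequencing depth) were used. BcaB01g02286 was also the highest of the 89 on this scale, with a mean of 22026 FPKM over the 12 libraries. BcaC06g32460 on C06 came second with 9180 FPKM and BcaB05g24199 on B05 was the third with 5189 FPKM. They were followed by BcaB02g07012 on B02 with 2715 FPKM, BcaC05g29670 on C05 with 2541 FPKM and BcaC05g29516, also on C05, with 2533 FPKM. The order changed between groups. BcaC06g32460 had 17514, 16654 and 16226 FPKM in the haploid at meiosis and 1104, 1015 and 998 FPKM in the tetraploid at mitosis, where it stood below the other 5 genes. In that group BcaB05g24199, with 5459, 5713 and 5209 FPKM, came close behind BcaB01g02286, with 6001, 5934 and 5961 FPKM. The means of BcaC05g29670 and BcaC05g29516 were nearly equal, but BcaC05g29670 was the higher one in every haploid library at meiosis, at 2374, 2219 and 2333 FPKM against 1805, 1653 and 1651 FPKM. In the haploid at mitosis the order was the reverse, with 2668, 2807 and 2775 FPKM against 3133, 3270 and 3430 FPKM.

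**Figure D2:**
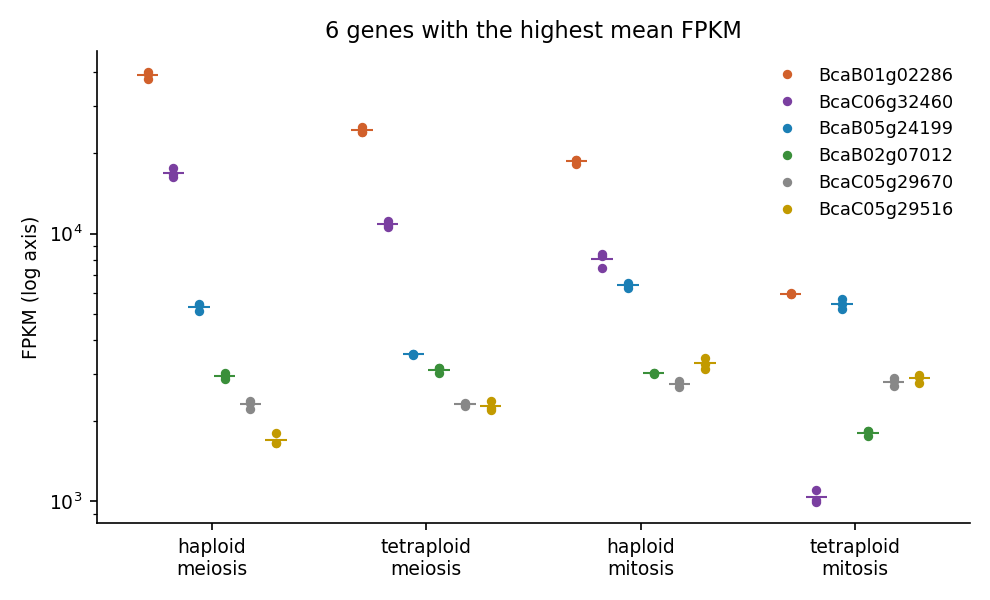
FPKM (log axis) of the 6 genes with the highest mean FPKM in the 4 groups; each point is 1 library and each short line a group mean. BcaB01g02286 was the highest in every group, and BcaC06g32460 went from second place in 3 groups to the last of the 6 in the tetraploid at mitosis.

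In CPM the means of the 89 genes over the 12 libraries spanned from 231 to 15889. The median of the 89 genes was 477 CPM (mean over the 12 libraries), 7 genes had a mean over 1000 CPM and 49 had a mean under 500 CPM. Their minimum over the libraries was 400 CPM or more for 27 genes, 1000 CPM or more for 3, and between 200 and 220 CPM for 9. The genes just inside the limit were BcaC01g00180, with a minimum of 201 CPM, and BcaC06g31730, with 204 CPM. Just outside were BcaB02g07167, with 199 CPM in 1 tetraploid meiosis library, and BcaC01g00144, with 199 CPM in 1 tetraploid mitosis library. A further 16 placed genes outside C03 had a minimum between 180 and 200 CPM, 18 in all, so the limit cuts through a continuous range of levels.

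Both subgenomes supplied such genes in proportion to their size. The B chromosomes held 39 of them and the C chromosomes 50, and B genes were 43.8% of the 89 and 44.9% of the placed genes outside C03 with a mean of 1 CPM or more. All 16 chromosomes carried at least 2. Chromosome C04 carried 11, B01 carried 10 and C05 carried 9, against 2 each on B05 and B08. The median of the mean levels was 345 FPKM for the B genes and 360 FPKM for the C genes.

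The share of counts was less even than the number of genes. B genes took 62.6% ± 0.352 (SD, n = 3) of the counts of the 89 genes in the haploid at meiosis, 57.2% ± 0.345 in the tetraploid at meiosis, 58.5% ± 0.235 in the haploid at mitosis and 49.5% ± 0.183 in the tetraploid at mitosis. Without BcaB01g02286 these shares were 42.7% ± 0.240, 44.5% ± 0.253, 45.9% ± 0.102 and 44.2% ± 0.109, and the order of the forms at meiosis turned again. The excess of B counts among the 89 genes was therefore carried by 1 gene.

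The ratio of CPM to FPKM would follow gene length if both came from the same reads, but gene lengths were not used here and the tool behind the FPKM is not given, so the ratio is a description. Its median over the 89 genes was 1.40 (interquartile range 0.870 to 1.77), and over the 31456 genes with at least 20 counts in every library it was 1.26 (0.763 to 1.900). Of the 89 genes 29.2% had a ratio under 1, against 37.1% of those genes. The genes at the top of the FPKM order had ratios of 0.722 for BcaB01g02286, 0.217 for BcaC06g32460 and 0.321 for BcaB05g24199. The next had 0.708 for BcaB02g07012, 0.275 for BcaC05g29670 and 0.280 for BcaC05g29516. FPKM is the divisor of the ratio, so choosing genes by high FPKM favours low ratios.

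None of the 89 genes had consecutive gene numbers, so there was no run of neighbours. Among 73 pairs that followed each other on a chromosome, 4 were within 10 gene numbers. BcaB07g30478 and BcaB07g30488 had similar levels and moved alike, with group means at meiosis of 547 and 649 CPM (haploid) and 681 and 758 CPM (tetraploid), and at mitosis of 446 and 512 CPM (haploid) and 318 and 340 CPM (tetraploid). Without sequences it could not be examined whether they are near-identical copies between which reads could be split, so their single values are uncertain in that respect. BcaB01g04793 and BcaB01g04797, 4 gene numbers apart, moved in opposite directions. BcaB01g04793 went from 483 to 242 CPM between meiosis and mitosis in the haploid and from 810 to 328 CPM in the tetraploid, while BcaB01g04797 went from 247 to 373 CPM and from 228 to 272 CPM. These pairs were singled out after their values were seen.

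Libraries of a group differed little for these genes. The largest coefficient of variation within a group had a median of 3.57% over the 89 genes, and its highest value was 10.4%, for BcaC05g24712. Across all 12 libraries the highest CPM was at most 2 times the lowest for 51 genes and over 5 times for 4 genes. These 4 were BcaC06g32460 (14.3 times), BcaC01g01433 (8.68 times), BcaB01g02286 (6.75 times) and BcaB04g17029 (6.53 times). A gene that dropped under 200 CPM in any library could not be among the 89, so large falls were limited by the rule.

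The steadiest gene was BcaC05g24778 on C05, with an SD of log2 CPM of 0.09 over the 12 libraries. At meiosis its CPM was 965, 992 and 969 in haploid libraries against 886, 886 and 904 in tetraploid libraries, and at mitosis it was 1022, 987 and 990.5 against 887, 884.5 and 860.0. The haploid libraries lay above the tetraploid libraries at each stage, while the CPM of the stages overlapped within each form. In the tests described below it was called higher in the haploid at both stages (log2 fold changes of 0.14 and 0.23) and higher at mitosis in the haploid (0.24, SE 0.033, adjusted p = 9.68e-08, edgeR) and in the tetraploid (0.15, SE 0.033, adjusted p = 0.000172, edgeR). The stage calls depended on the scaling and were lost on column totals, at 0.04 and -0.02 (adjusted p = 0.345 and 0.523, edgeR). BcaC01g06661 and BcaC01g00180 on C01 came next, with SDs of 0.11 and 0.12 on the log2 scale, and ranged from 290 to 361 CPM and from 201 to 255 CPM.

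Group means of CPM on column totals had a common tendency. For 48 of the 89 genes the highest group mean was that of the tetraploid at meiosis, followed by the haploid at meiosis with 16, the haploid at mitosis with 13 and the tetraploid at mitosis with 12. The lowest group mean was that of the haploid at mitosis for 40 genes, the tetraploid at mitosis for 23, the haploid at meiosis for 17 and the tetraploid at meiosis for 9. These counts depend in part on the scaling. On column totals the median log2 stage difference of all genes tested was -0.16 in the haploid and -0.14 in the tetraploid. With the scaling of the tests described below it was 0.04 and 0.03. The same counts were not made over all genes.

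**Figure D3:**
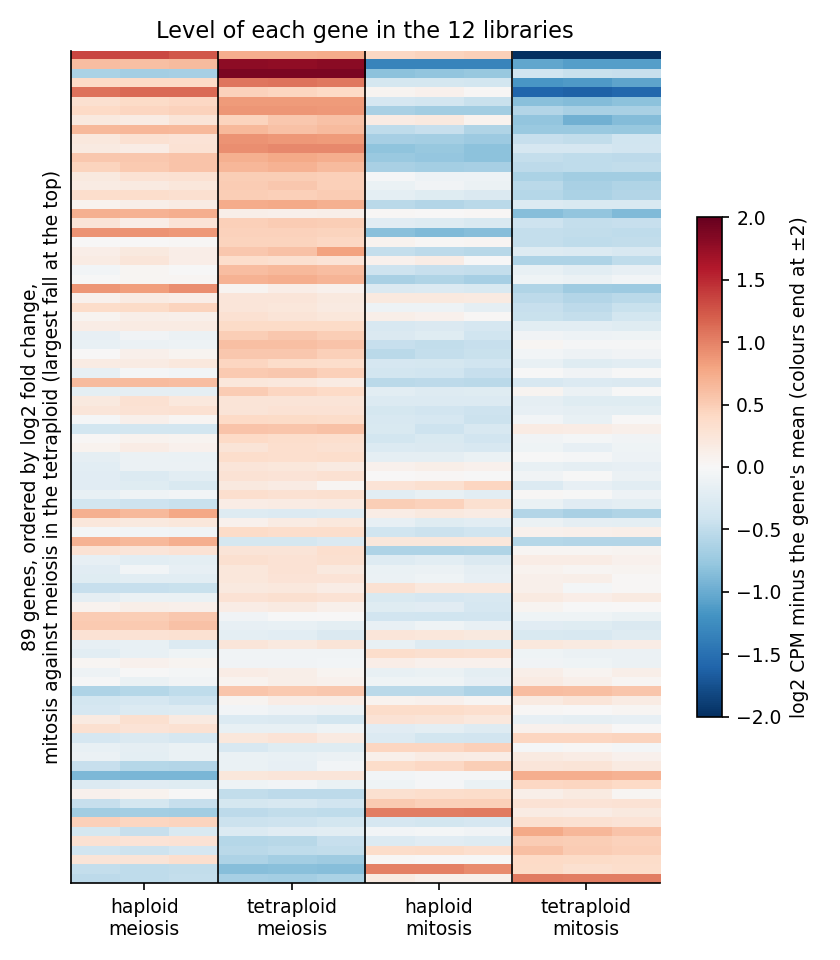
Log2 CPM of each of the 89 genes minus the gene's mean, in the 12 libraries of the 4 groups; genes are ordered by their log2 fold change between the stages in the tetraploid, and colours end at 2 and -2. The 3 libraries of a group look alike, and the tetraploid at meiosis held the highest group mean of CPM on column totals for 48 genes.

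The rule asked for a minimum level in every group, which limited how far a gene could fall, but for no difference between groups. Such differences were tested with edgeR's quasi-likelihood test over all 51860 genes that passed its filter on low counts, which all 89 genes did. A gene was called at a Benjamini-Hochberg adjusted p under 0.05, adjusted over all genes tested. Log2 fold changes are on library sizes scaled by TMM (trimmed mean of M-values) and have their standard error (SE). With 3291 counts or more per gene and library, small differences could pass the test, and the share of the 89 genes that was called lay above that of all genes in every comparison. The shares with at least a 2-fold difference, given beside those of all genes, are partly set by the rule. The same may hold for shares of opposite calls, since small differences can more easily vary in direction.

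The first comparison set the haploid against the tetraploid form at meiosis. In the haploid, 23 of the 89 genes were called higher and 57 lower, where 19.5% of all genes tested were called higher and 18.8% lower. The median log2 fold change was -0.19 (interquartile range -0.48 to 0.12), beside 0.00 over all genes tested, and 5 genes were called with at least a 2-fold difference, 5.62% of the 89 beside 9.46% of all genes. The libraries of the forms did not overlap for 81 of the 89 genes, where they did not for 47.0% of all genes and 38.3% of all genes were called in either direction. The B and C genes had similar splits, with 10 of 39 and 13 of 50 called higher and 25 and 32 called lower.

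BcaB04g17029 on B04 had the largest difference at meiosis. Haploid libraries stood at 270, 263 and 266 CPM and tetraploid libraries at 1544, 1550 and 1552 CPM (a log2 fold change of -2.54, SE 0.037, adjusted p = 4.8e-33, edgeR). No other group came near the tetraploid level, since this gene was at 238 to 248 CPM in the haploid and 307 to 320 CPM in the tetraploid at mitosis. BcaC01g01433 on C01 was also lower in the haploid, at 1532, 1511 and 1547 CPM against 3444, 3403 and 3478 CPM (-1.16, SE 0.031, adjusted p = 2.68e-25, edgeR). In the other direction, BcaC05g27804 on C05 was at 1730, 1677 and 1765 CPM in the haploid and 837, 841 and 872 CPM in the tetraploid (1.03, SE 0.032, adjusted p = 2.53e-23, edgeR). BcaB03g13699 on B03 was at 918, 883 and 960 CPM against 469, 464 and 468 CPM (0.99, SE 0.037, adjusted p = 3.04e-21, edgeR). In none of these 4 genes did the forms overlap at this stage, which was a condition for naming them. The most abundant gene, BcaB01g02286, was called higher in the haploid (0.70, SE 0.026, adjusted p = 2.61e-21, edgeR).

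**Figure D4:**
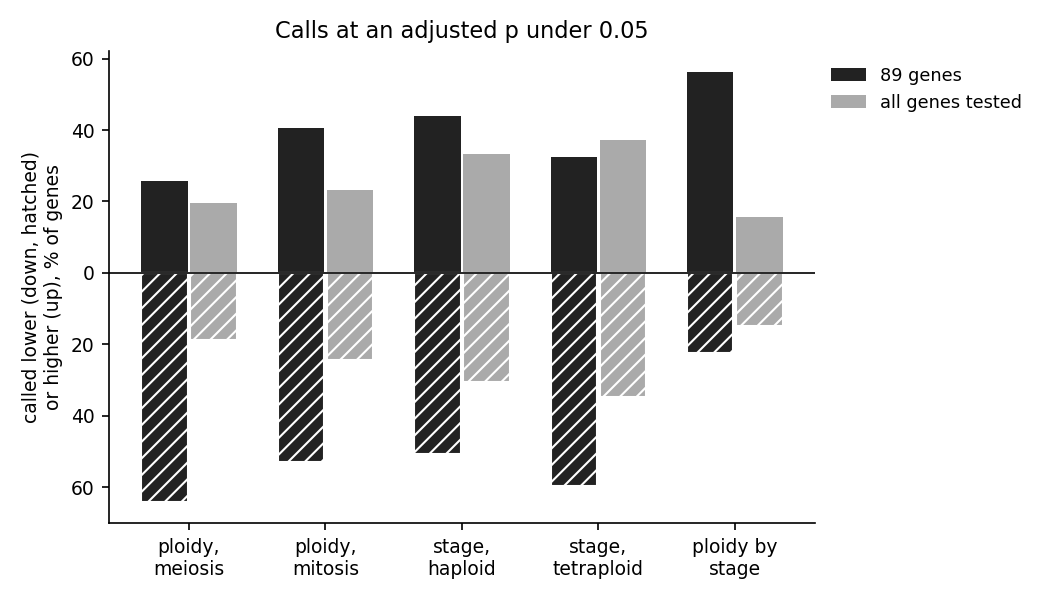
Percentage of genes called higher (up) or lower (down, hatched) in each comparison, for the 89 genes (black) and all genes tested (grey); ploidy is haploid against tetraploid, and stage is mitosis against meiosis. At meiosis 64.0% of the 89 genes were called lower in the haploid, beside 18.8% of all genes.

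The same comparison at mitosis gave a more even split. In the haploid, 36 of the 89 genes were called higher and 47 lower, beside 23.3% and 24.4% of all genes tested. The median log2 fold change was -0.12 (interquartile range -0.26 to 0.43), beside 0.02 over all genes, and 4 genes had a called difference of at least 2-fold, 4.49% beside 19.7%. Libraries of the forms did not overlap for 86 of the 89 genes, beside 53.8% of all genes, and 47.7% of all genes were called. B genes were called higher and lower in equal number, 19 each, while 17 C genes were higher and 28 lower.

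BcaC06g32460 had the largest difference at this stage. Its CPM was 1796, 1837 and 1874 in the haploid and 240, 239 and 253 in the tetraploid, 7.52 times as high in the haploid (log2 fold change 2.95, SE 0.035, adjusted p = 1.86e-35, edgeR). BcaB01g02286 followed, 3.13 times as high in the haploid (1.69, SE 0.026, adjusted p = 1.91e-32, edgeR). The 2 genes with the highest mean FPKM had the 2 largest positive differences at mitosis among the 89. The rule set a minimum CPM in every library, so a large difference required a high CPM in the higher group. A link between level and size of difference is therefore partly set by the rule. Lower in the haploid were BcaC06g31730 on C06, at 217, 216 and 205 CPM against 479, 473 and 459.5 CPM (-1.11, SE 0.041, adjusted p = 5.84e-22, edgeR), and BcaC01g06255 on C01, at 395.5, 375 and 374 CPM against 712, 709 and 705 CPM (-0.85, SE 0.037, adjusted p = 7.93e-20, edgeR). The forms did not overlap for either gene, which was again a condition for naming them. BcaC06g31730 had nearly the same difference at meiosis, at 204, 210 and 220 CPM against 458, 450.0 and 457 CPM (-1.10, SE 0.041, adjusted p = 2.44e-21, edgeR).

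The ploidy comparisons at the 2 stages share no library. Called lower in the haploid at both stages were 35 of the 89 genes, beside 7.99% of all genes tested, and 14 were higher at both, beside 9.69%. Opposite calls were made for 28 genes, beside 5.41% of all genes, of which 19 were lower at meiosis and higher at mitosis and 9 the reverse. Of the 77 genes called at both stages, 36.4% had opposite directions, and of the 11974 such genes among all tested the share was 23.4%.

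**Figure D5:**
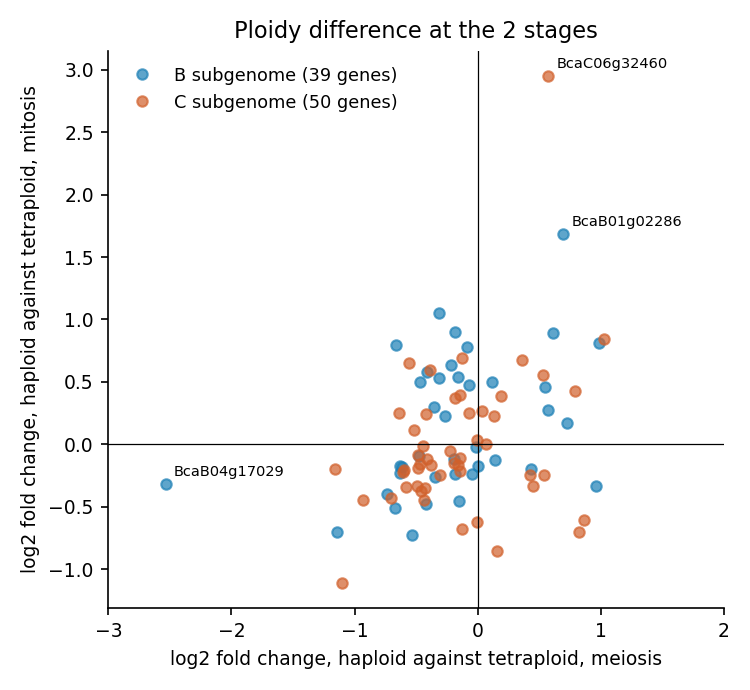
Log2 fold change of haploid against tetraploid anthers at meiosis (x axis) and at mitosis (y axis); each point is 1 of the 39 B genes or 50 C genes. BcaC06g32460 reached 2.95 at mitosis and BcaB04g17029 -2.54 at meiosis, and points in the upper left and lower right parts changed direction between the stages.

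The next comparison asked how the 89 genes changed from meiosis to mitosis in the haploid. At mitosis 39 genes were called higher and 45 lower, beside 33.3% and 30.4% of all genes tested, with a median log2 fold change of -0.09 beside 0.04 over all genes. With library sizes taken as column totals, without TMM factors, the split was 21 higher and 52 lower. That scaling moved the median of all genes by more than 0.1, to -0.16 (haploid) and -0.14 (tetraploid), and 12 called genes had opposite directions in the TMM fit and in CPM, all with sizes of at most 0.20 on the log2 scale. In the tetraploid there were 7 such genes, of at most 0.16. At least 2-fold differences were called for 9 genes, 10.1% beside 35.1% of all genes. Libraries of the stages did not overlap for 76 of the 89 genes, beside 67.9% of all genes, and 63.8% of all genes were called.

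BcaB01g01681 on B01 rose most in the haploid, from 279, 281 and 280 CPM at meiosis to 921, 921 and 926 CPM at mitosis (log2 fold change 1.92, SE 0.036, adjusted p = 2.25e-31, edgeR). BcaC05g29470 on C05 rose from 565.5, 554 and 563 CPM to 1584, 1581 and 1518 CPM (1.68, SE 0.034, adjusted p = 2.09e-30, edgeR). BcaC01g01433 fell most, from the values given above to 402, 401 and 402 CPM at mitosis (-1.73, SE 0.032, adjusted p = 1.87e-31, edgeR). In BcaC04g22055 on C04 the CPM went from 1338, 1337 and 1309 to 399, 387 and 395 (-1.55, SE 0.034, adjusted p = 1.84e-29, edgeR). The stages were far apart in all 4 genes, by more than any spread between their libraries. An absence of overlap was a condition for naming them.

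In the tetraploid the balance lay further on the side of decreases. At mitosis 29 of the 89 genes were called higher and 53 lower, beside 37.3% and 34.7% of all genes tested, and on column totals the split was 19 higher and 61 lower. The median log2 fold change was -0.21 (interquartile range -0.72 to 0.16), beside 0.03 over all genes. Called differences of at least 2-fold numbered 19, of which 13 were decreases, 21.3% of the 89 beside 43.4% of all genes. The stages did not overlap for 84 genes, beside 75.0% of all genes, and 72.0% of all genes were called. Of the B genes 26 of 39 were lower and 12 higher, and of the C genes 27 of 50 were lower and 17 higher.

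BcaC06g32460 fell most in the tetraploid, from 2231, 2232 and 2261 CPM at meiosis to 240, 239 and 253 CPM at mitosis, 9.18 times lower (log2 fold change -3.03, SE 0.035, adjusted p = 1.2e-37, edgeR). In the haploid the same gene went from 3413, 3362 and 3197 CPM to 1796, 1837 and 1874 CPM (-0.65, SE 0.032, adjusted p = 7.79e-19, edgeR). BcaC01g01433 fell to 489, 468 and 465 CPM (-2.69, SE 0.033, adjusted p = 5.78e-37, edgeR), so its forms, which had differed by -1.16 at meiosis, differed by -0.20 at mitosis (SE 0.032, adjusted p = 2.57e-06, edgeR). Among the increases, BcaC01g06255 rose from 220, 218 and 224 CPM to 712, 709 and 705 CPM (1.85, SE 0.038, adjusted p = 3.61e-30, edgeR), and BcaC05g29470 from 438, 440.0 and 436 CPM to 1028, 980 and 1008 CPM (1.37, SE 0.034, adjusted p = 8.23e-28, edgeR). BcaB01g02286 fell in both forms, by 0.86 on the log2 scale in the haploid (SE 0.026) and by 1.85 in the tetraploid (SE 0.027).

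The stage comparisons of the 2 forms share no library either. Lower at mitosis in both were 38 of the 89 genes, beside 25.0% of all genes tested, and higher in both were 22, beside 27.2%. Opposite calls were made for 18 genes, beside 2.28% of all genes. Of these 18, 13 were higher in the haploid and lower in the tetraploid, and 5 were the reverse. The rule limited large stage changes, so the share of opposite calls is not directly comparable with that of all genes. On column totals the numbers were 46 lower in both, 13 higher in both and 10 opposite. No gene of the 89 escaped a call in all 4 of these comparisons (edgeR), where 13.0% of all genes did, and 68 were called in all 4, beside 16.1%. Beside other abundant genes the 89 were not called unusually often. For ploidy, 89.9% (meiosis) and 93.3% (mitosis) of the 89 were called. Of the 314 other placed genes outside C03 with a mean of 200 CPM or more, 80.6% and 93.3% were. For stage it was 94.4% (haploid) and 92.1% (tetraploid) of the 89, beside 98.7% and 98.1% of the 314.

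An interaction term tested whether the stages had different ploidy differences. The difference was more positive at mitosis, that is shifted towards the haploid, for 50 of the 89 genes and more negative for 20, beside 15.6% and 14.9% of all genes tested and 30.5% in either direction. The median was 0.23 on the log2 scale (interquartile range -0.07 to 0.54), beside 0.01 over all genes. The 314 other placed genes outside C03 with a mean of 200 CPM or more had a similar shift. Of these, 157 were called more positive and 86 more negative, with a median of 0.26. The shift was therefore not particular to the 89 genes.

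BcaC06g32460 had the largest positive interaction (2.37, SE 0.047, adjusted p = 6.04e-29, edgeR), followed by BcaB04g17029 (2.21, SE 0.051, adjusted p = 4.54e-27, edgeR), whose difference at meiosis of -2.54 shrank to -0.32 at mitosis. The largest negative interactions were in genes that exchanged the order of the forms. BcaC04g23435 on C04 was at 493, 484 and 488 CPM in the haploid and 269, 273 and 290 CPM in the tetraploid at meiosis, and at 333, 342 and 336 CPM and 570, 566 and 553.5 CPM at mitosis (-1.53, SE 0.053, adjusted p = 9.85e-22, edgeR). BcaC09g50898 on C09 was at 1034, 999 and 1019.5 CPM against 553, 557 and 578 CPM at meiosis, and at 591, 577 and 593 CPM against 931, 917 and 901.5 CPM at mitosis (-1.47, SE 0.048, adjusted p = 1.16e-22, edgeR). Haploid and tetraploid libraries of these genes did not overlap at either stage.

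At the other end, BcaC05g29670, one of the 6 genes with the highest mean FPKM, was called in neither ploidy comparison. It stood at 645, 611 and 636 CPM in the haploid and 639, 630 and 641 CPM in the tetraploid at meiosis, and at 743.5, 780 and 770.1 CPM and 791, 772 and 739 CPM at mitosis. The log2 fold changes between the forms were -0.01 (SE 0.036, adjusted p = 0.925, edgeR) and 0.03 (SE 0.036, adjusted p = 0.469, edgeR), within the spread between libraries.

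The deposited tables did not give the same picture for every gene. For 83 of the 89 genes the FPKM was 100 or more in every library, and for 87 the ratio of CPM to FPKM varied by at most 1.5 times between libraries. BcaC07g39655 on C07, with a rank between 100 and 201 by CPM, had a mean of 10.4 FPKM and ranked between 12507 and 33831 on that scale. Its ratio of CPM to FPKM was 24.5 in 1 haploid meiosis library and 174 in 1 tetraploid mitosis library, so the ratio was not constant between libraries. At mitosis its mean CPM was lower in the haploid than in the tetraploid, at 428 against 493. Its mean FPKM was higher in the haploid, at 9.78 against 3.46. Its level and its ploidy difference are therefore uncertain. BcaC05g24712 had a ratio of 0.843 in tetraploid meiosis replicate 3 and of 0.525 to 0.578 in the other libraries, and this library also gave its highest CPM, 597 against 493 and 511 in the other 2 of its group. Its interaction of 0.29 was called on counts and not on FPKM. BcaC01g06255 had a mean of 42.3 FPKM at a steady ratio of 9.29.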

How the data were processed

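The authors deposited a table of read counts per gene, whole numbers that are not normalised, and, over the same genes, a table of FPKM values, each with 12 libraries. The submitters' processing notes name TopHat2, featureCounts 2.0.1, Bowtie2 2.2.3 and HISAT2 2.1.0 without saying what each did. Genome build, annotation, strandedness, the handling of multi-mapping reads and the tool behind the FPKM were not given in the sources used here. Homoeologous or other near-identical copies may therefore share reads, and values of single genes are uncertain where they do.

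The members and the comparisons were chosen with earlier results of these data known. CPM used column totals. Tests were run with edgeR 4.0.16 under R 4.3.3 (TMM factors from 0.922 to 1.07, default filter, 1 model with a mean per group, no replicate block). P-values were adjusted over 51860 genes, which hold 99.8% of counts. The common biological coefficient of variation was 0.0839. SEs are the fitted log2 difference over the square root of F. The procedure was tested on simulated data for the ploidy comparison at meiosis only, with the same spread set for every gene. The other comparisons were not simulated.

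Genes are named by rule: the 6 highest by mean FPKM, the 4 highest by mean CPM, the 2 largest called changes in each direction of each comparison without overlap of libraries, the 3 smallest SDs of log2 CPM, and the 2 nearest the limit on each side. Other named genes were chosen after seeing values. Planned lists of named genes and markers were not run, because identifiers carry no names. No pair of libraries of a group agreed within sampling noise (mean chi-square per gene 2.52 to 3.08). Alternatives were DESeq2 1.42.0, limma-trend 3.58.1 on log2(FPKM + pseudocount) for genes with 0.5 FPKM or more in at least 3 libraries, other scalings, filters and rules, and leaving out each library.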

Additional observations from a re-analysis of the deposited data

Results flagged for a closer look

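Of the 26 genes named among the 89, some of them for this difference, 21 had a ploidy difference that differed between the stages (edgeR interaction, adjusted p under 0.05), where 30.5% of all genes tested did. Among all 89 genes the share was 78.7%. It was 77.4% among the 314 other placed genes outside C03 with a mean of 200 CPM or more. The value given is the log2 difference of haploid against tetraploid at mitosis minus that at meiosis. It was positive for BcaC06g32460 (2.37), BcaB04g17029 (2.21), BcaB01g01681 (1.08), BcaB01g02286 (0.99), BcaC01g01433 (0.96), BcaB02g07012 (0.87), BcaB07g30488 (0.85), BcaB07g30478 (0.84), BcaC05g29516 (0.66), BcaB01g04797 (0.38), BcaB01g04793 (0.34), BcaC05g29470 (0.31), BcaC05g24712 (0.29) and BcaC07g39655 (0.22). It was negative for BcaC04g23435 (-1.53), BcaC09g50898 (-1.47), BcaC01g06255 (-1.02), BcaC04g22055 (-0.78), BcaB05g24199 (-0.29), BcaC05g27804 (-0.18) and BcaB03g13699 (-0.17). For BcaC07g39655 the ploidy difference at mitosis had opposite directions in counts and in FPKM, so its value is uncertain.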

How the results depend on the processing

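Leaving 1 library out of the rule can add genes but remove none, and gave 89 to 90 genes and 6.53% to 6.58% of counts on average over the libraries, beside 89 and 6.53%. With CPM scaled by TMM factors there were again 89 genes, of which 85 were shared. The rule gave 349 genes (12.2% of counts) at a minimum of 100 CPM, 27 (3.80%) at 400 CPM, 403 (21.5%) for a mean of 200 CPM, and 626 (13.0%) for 100 FPKM or more in every library, of which 83 were shared.

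Column totals without TMM factors gave 21 genes higher at mitosis in the haploid (39 in the main fit) and 19 in the tetraploid (29), and FPKM with limma-trend gave 21 and 18 at a pseudocount of 1 and of 0.1. Calls of at least 2-fold numbered 1 higher and 4 lower in the haploid at meiosis, 3 and 1 at mitosis, 6 and 3 for the stage in the haploid, 6 and 13 for the stage in the tetraploid, and 6 and 4 for the interaction. No other setting moved a count of the 5 comparisons by over 1.5 times. Of 50 tested differences of named genes, 3 lost their call or their direction under some setting. The stage differences of BcaC05g24778 (0.24 in the haploid, 0.15 in the tetraploid) were 0.0355 and -0.0236 on column totals (adjusted p = 0.345 and 0.523, edgeR) and -0.0440 and -0.0838 with limma-trend on FPKM for a pseudocount of 1 (adjusted p = 0.217 and 0.0230) and -0.0440 and -0.0839 at 0.1 (adjusted p = 0.224 and 0.0256). The interaction of BcaC05g24712 (0.29) was 0.15 on FPKM at either pseudocount (adjusted p = 0.341 and 0.363, limma-trend). The cause was not tested. The small uncalled differences of BcaC05g29670 between the forms changed sign under some settings. With the replicate block, calls were 23 and 57, 36 and 47, 38 and 44, 28 and 53, and 50 and 20, higher and lower in the same order. Same-numbered libraries did not deviate together (correlations of deviations from -0.0186 to 0.0147 over 12 pairs). This gave no sign that the numbers pair the libraries. Over all genes and with 3 libraries per group a small shared effect could be missed, so pairing was not excluded.

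With 1 library left out, calls ranged from 22 to 23 higher and 54 to 57 lower (ploidy, meiosis), 35 to 36 and 43 to 47 (ploidy, mitosis), 36 to 40 and 44 to 45 (stage, haploid), 26 to 29 and 51 to 54 (stage, tetraploid), and 48 to 50 and 20 to 20 (interaction).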

Other observations

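The 8 unplaced genes and the C03 gene that reach 200 CPM in every library bring the number of such genes to 98. The 89 genes are 9.07% of the 981 placed genes outside C03 that reach 200 CPM in at least 1 library.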
